A study of Danio rerio with 12 samples.

Results

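The microtubule motor genes described here are the dynein, dynactin and kinesin genes of zebrafish trunk neural crest. They were chosen by gene symbol, and the choice was made with earlier results of these data known. It took in the cytoplasmic dynein subunits and light chains, the dynactin subunits, and the PAFAH1B1, NDE1, NDEL1 and BICD genes. It also took in the numbered and C-type kinesins and the kinesin light chains. The choice gave 85 gene identifiers of 25878 in the table, with 76 different symbols. There were 14 identifiers of cytoplasmic dynein 1, 6 of the ciliary dynein 2 with DYNLT5, 8 of dynactin and 8 of dynein regulators. The other 49 were kinesins, of which 27 were classed as transport kinesins, 12 as mitotic kinesins and 10 as others. Of the symbols, 9 were carried by more than 1 identifier (18 identifiers in all), mostly duplicated zebrafish genes under a human-style name. How the counting shared reads among such copies is uncertain.

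All embryos carried the sox10:H2B-Dendra2 transgene, in which the promoter of the crest gene sox10 drives a histone fused to a photoconvertible fluorescent protein. Nuclei were converted by light in anaesthetised, mounted embryos, and 20 sorted cells per library were sequenced after amplification of full-length cDNA. The 4 premigratory libraries came from crest at 16 hours after fertilisation, before confined migration, and the 8 migratory libraries from crest at 24 hours, after it. Every library is labelled as a control and none received another agent. Migratory cells were taken beside somites 10 to 15, and leader and follower cells were not told apart in the labels. For each population 8 embryos were converted, so cells of several embryos may share a library.

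Dynein walks toward the minus ends of microtubules, usually near the cell centre, and needs the dynactin complex and a cargo adaptor to move far. Most kinesins walk toward the plus ends and carry vesicles, mitochondria and other cargo outward, while a mitotic subset builds the spindle, moves chromosomes or divides the cell. Dynein with PAFAH1B1 and NDE1 or NDEL1 also pulls nuclei through migrating cells, as known from mammalian neurons, and in fish and frog pigment cells dynein and kinesin-2 carry pigment granules.

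The deposited values are normalised read counts per gene, with library totals of 10735983 to 21711424 before migration and of 17765775 to 24227327 after it. In premigratory libraries 3650 to 6879 genes reached 10, and in migratory libraries 9007 to 11896 did, so fewer genes of the table were seen before migration. Sox10 was present in all libraries (3769 to 16200 premigratory, 1225 to 22646 migratory), and of the 13 matched crest identifiers 4, 7, 6 and 9 reached 10 in premigratory replicates 1 to 4 and 9 to 12 in migratory libraries. Single libraries stood apart in markers of other tissues. The 15 matched epidermal identifiers summed to 2048870 in premigratory replicate 1, against 9875 to 346184 in the other premigratory and 647 to 869434 in migratory libraries. The 15 blood identifiers summed to 2533230 in migratory replicate 5 and to 37.3 to 25038 in the other migratory libraries, against 21.3 to 10720 in premigratory ones. For the 19 muscle identifiers the sums were 625 to 4106 before migration and 1181 to 1033540 after it, and their part in the results was not tested. In migratory replicates 3, 4 and 7 the muscle sum, 1181 to 1897, lay inside the premigratory range. More of the 19 muscle identifiers reached 10 there (7, 11 and 14) than in premigratory libraries (3 to 6). The 16 neural tube identifiers summed to 56.9 to 7735 before migration and to 911 to 27828 after it. Migratory replicates 2 (27828) and 4 (27757) were the highest. For the 9 notochord and hypochord identifiers the sums were 1.70 to 137 before and 1.04 to 3055 after migration. The part of these markers in the results was not tested. With 20 cells pooled, fewer cells making a transcript and less of it per cell cannot be told apart.

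**Figure D1:**
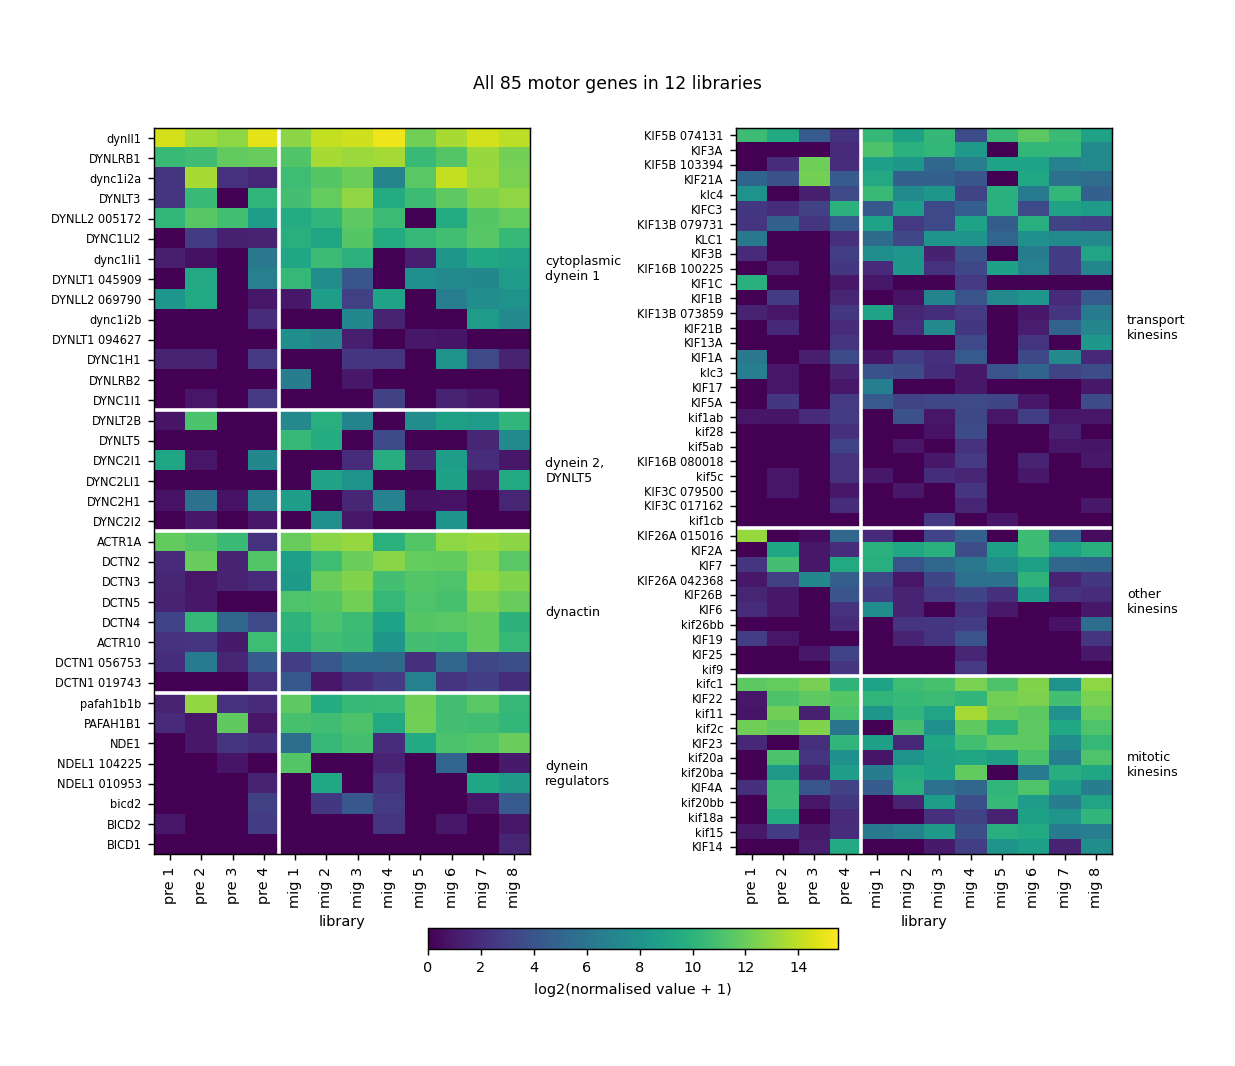
Colour gives log2(normalised value + 1) of each of the 85 motor genes (rows, grouped by class and ordered by mean value) in the 4 premigratory and 8 migratory libraries (columns), and a 6-digit number tells apart identifiers that share a symbol by the last digits of their Ensembl name. Dynactin rows other than DCTN1 are bright in all 8 migratory libraries, the rows of dynll1 and kifc1 are bright on both sides, and many transport kinesin rows are dark throughout.

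Migratory libraries had higher values of 12 motor genes and lower values of none (0). The test was limma on log2(value + 1) over all genes that reached 10 in 4 or more of the 12 libraries, with Benjamini-Hochberg adjusted p under 0.05 as the threshold. Of the 85 identifiers 52 passed this filter, where 46.8% of the table did, so 12 of 52 tested motor genes rose (23.1%), where 12.4% of all tested genes did. For lower values the share of all genes was 0.132%. At an unadjusted limma p under 0.05, 21 of the 52 motor genes were higher and 0 lower. Of all 12122 tested genes 3850 were higher and 80 lower at that threshold. The median difference of the 52 was 3.13 on the log2 scale beside 2.67 over all 12122 tested genes. The filter shapes these figures, since a gene seen in migratory libraries alone can pass it. Of the tested motor genes 10 were under 10 in every premigratory library, where 21.7% of all tested genes were so and reached 10 in at least 4 migratory libraries. Over all 85 identifiers with no filter the median difference was 1.83 and 8 rose, beside 0.94 and 3.39% of 25095 genes (0.0279% fell). Under quantile normalisation, which forces the libraries to 1 distribution, 2 of 52 rose, DCTN3 and DCTN5, beside 1.15% of all tested genes (0.437% fell).

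The 12 genes that rose were 4 of 8 dynactin identifiers (DCTN3, DCTN4, DCTN5 and ACTR10), 3 of 14 of cytoplasmic dynein 1 (DYNC1LI2, dync1i2a and DYNLT3) and 3 of 8 dynein regulators (PAFAH1B1, pafah1b1b and NDE1). The transport kinesin KIF3A and the mitotic kinesin kif15 made up the rest, from 27 and 12 identifiers. Of the 52 tested motor genes, and of the 85 identifiers, 4 had groups that did not overlap, DCTN3, DCTN5, DYNC1LI2 and kif15. All 4 were among the 12. In this direction 4.83% of all tested genes and 2.32% of the table were separated. The reverse separation was found in 0 motor genes, 0.14% of the tested genes and 0.0657% of the table. With the library number as a fixed replicate block, which left 3 residual degrees of freedom, none of the 12 was called (0 of all genes). As a random block it kept all 12 (12.7% of all tested genes rose). The fitted correlation within blocks was 0.0175, so the random block run was close to the run with no block.

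**Figure D2:**
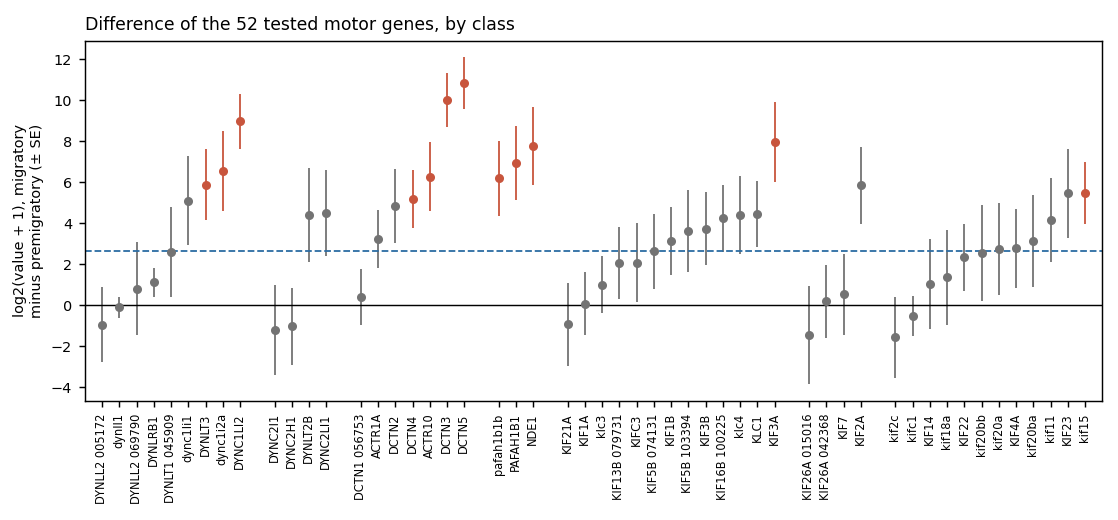
Points give the difference of migratory from premigratory libraries on the log2(value + 1) scale with its standard error for the 52 tested motor genes, grouped from left to right as cytoplasmic dynein 1, dynein 2, dynactin, dynein regulators, transport kinesins, other kinesins and mitotic kinesins. Red points are the 12 genes that rose and the dashed line is the median of all tested genes, 2.67; dynactin and regulator points lie mostly above it and mitotic kinesins mostly on both sides of it.

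Dynactin is built of a short actin-like filament, a shoulder that holds the microtubule-binding arm, and a pointed-end complex that meets cargo adaptors. Its pointed-end members DCTN4, DCTN5 and ACTR10 rose. No identifier carried the symbol DCTN6, so this dynactin subunit was not read and the whole complex was not covered. DCTN5 (p25) had values of 1.97, 0.964, 0 and 0 in premigratory replicates 1 to 4 and of 1274 to 5774 in migratory libraries, with a median of 2569.7. Every migratory library lay far above every premigratory one, and the log2 difference was 10.83 (SE 1.27, limma adjusted p = 0.000398). In migratory replicates 3, 4 and 7, where the muscle sum was low, DCTN5 was at 4725, 1274 and 5774. More muscle identifiers still reached 10 in these libraries (7, 11 and 14 of 19) than in premigratory ones (3 to 6). Migratory replicate 4 had a neural tube marker sum of 27757. The part of other tissues in these values was not tested.

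ACTR10 (Arp11), the actin-related protein that caps the pointed end, was at 3.67, 4.33, 1.22 and 1618 in premigratory libraries and at 288 to 3460.1 (median 1582) in migratory ones. Its premigratory libraries split into 3 near zero and replicate 4 at the migratory level, and the difference was 6.26 (SE 1.68, limma adjusted p = 0.0255). DCTN4 (p62) stood at 7.55, 1295, 33.7 and 9.73 before and 516 to 3567 (median 1876) after migration. Here replicate 2 alone overlapped the migratory range, with a difference of 5.20 (SE 1.42, limma adjusted p = 0.0272). Leaving out either premigratory replicate 1 or 3 ended the calls of both genes (adjusted p up to 0.0719 for ACTR10 and 0.0565 for DCTN4). For DCTN4 so did leaving out the fourth premigratory or the seventh migratory library.

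In the shoulder, DCTN3 (p24) rose, with premigratory values of 2.20, 0.912, 1.84 and 2.72 and migratory values of 349 to 8531 (median 3305). The groups were separated and the log2 difference was 10.00 (SE 1.32, limma adjusted p = 0.000441). DCTN2 (dynamitin), its partner in the shoulder, was at 2.72, 3872, 1.80 and 2591 before migration and at 425 to 7001 (median 3579.9) after it. Premigratory replicates 2 and 4 thus reached the migratory level and replicates 1 and 3 did not, and the difference of 4.84 did not pass (SE 1.81, limma adjusted p = 0.0834). DCTN3 was at 0.912 and 2.72 in the premigratory libraries that held 3872 and 2591 for DCTN2.

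DCTN1 (p150), the arm that binds microtubules and dynein, did not exceed 109.8 in any library. Its identifier ENSDARG00000056753 had 3.07, 78.3, 1.99 and 20.9 in premigratory libraries and 3.22 to 41.3 (median 14.9) in migratory ones, with a difference of 0.41 (SE 1.35, limma adjusted p = 0.859). The other, ENSDARG00000019743, was under the filter, with a highest value of 109.8 in migratory replicate 5. ACTR1A (Arp1), the filament subunit, was at 3466, 2641, 1520.2 and 3.88 before and at 966 to 8789.8 (median 7049) after migration. Only premigratory replicate 4 was near zero, and the difference of 3.22 did not pass (SE 1.41, limma adjusted p = 0.127). Among the premigratory libraries, ACTR1A was low where ACTR10 was high, and the reverse held in the other 3.

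**Figure D3:**
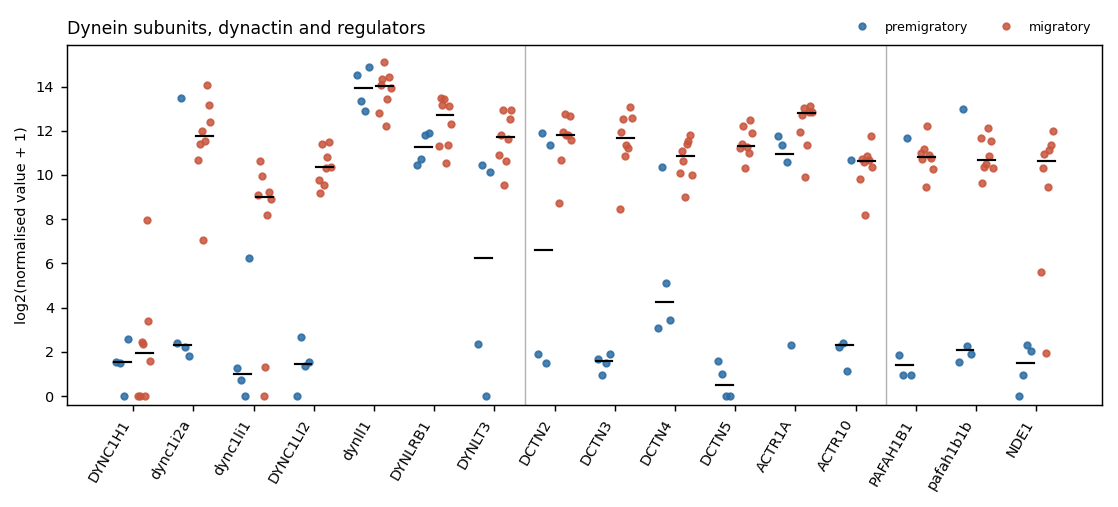
Each point is 1 library, blue for the 4 premigratory and red for the 8 migratory libraries, on the log2(normalised value + 1) scale, with black bars at group medians taken on that scale; grey lines part dynein subunits, dynactin and regulators. DCTN3, DCTN5 and DYNC1LI2 have no overlap between groups, dynll1 spans the same range in both, and single premigratory libraries reach the migratory level for ACTR10, PAFAH1B1 and pafah1b1b.

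Among the subunits of cytoplasmic dynein 1, DYNC1LI2 rose and its groups were separated. DYNC1LI2 is a light intermediate chain, the part of dynein that cargo adaptors hold. It was at 0, 5.41, 1.58 and 1.91 in premigratory libraries and at 583 to 2884 (median 1299.9) in migratory ones, a log2 difference of 8.97 (SE 1.35, limma adjusted p = 0.000734). The second light intermediate chain, dync1li1, had 1.42, 0.630, 0 and 74.3 before and 0 to 1583 (median 515) after migration. Migratory replicates 4 and 5 were at 0 and 1.49 while the other 6 lay between 292 and 1583, and the difference of 5.11 did not pass (SE 2.18, limma adjusted p = 0.120). Added together, the light intermediate chains ranged from 1.42 to 76.3 before migration and from 744 to 3681 after it. DYNC1LI2 alone fixed this lack of overlap, since its lowest migratory value, 583, was above the highest premigratory sum.

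The intermediate chain gene dync1i2a, which links the motor to dynactin, rose by 6.56 (SE 1.96, limma adjusted p = 0.0386). Its premigratory values were 4.31, 11285, 3.64 and 2.50, and its migratory values ran from 131 to 17166 (median 3533). Premigratory replicate 2 therefore exceeded all migratory libraries but replicate 6, and within the 4 shared batches the gene was higher after migration in 3 and lower in batch 2. Without premigratory replicate 2 the difference was 9.39 (limma adjusted p = 0.000828), and without any of 8 other single libraries the call was lost (adjusted p up to 0.114). The copy dync1i2b reached 147 to 369 in migratory replicates 3, 7 and 8 and was at 2.86 or less in the other 9 libraries. DYNC1I1 was under 10 in all 12.

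Of the dynein light chains, dynll1 (LC8) was abundant at both stages. It was at 23349, 10263, 7575 and 30396 in premigratory libraries and 4778 to 35614 (median 16618) in migratory ones, a difference of -0.10 (SE 0.52, limma adjusted p = 0.911). The 2 identifiers of DYNLL2, a second LC8 gene, did not pass either. ENSDARG00000005172 was at 1229, 2820.4, 1826 and 396 before and 0 to 3618 (median 1403) after, its 0 being in migratory replicate 5, the library rich in blood markers. That library also had the lowest share of all genes at 10 or more among migratory libraries (34.8%). DYNLRB1 (roadblock) was above 1000 in all 12 libraries, at 1390.1 to 3800.3 before and 1473 to 11502 (median 6993) after migration, and its difference of 1.12 did not pass (SE 0.71, limma adjusted p = 0.279).

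DYNLT3, a light chain of the Tctex type, rose by 5.89 (SE 1.74, limma adjusted p = 0.0371). Its values were 4.03, 1406, 0 and 1109.8 in premigratory libraries and 748 to 7882 (median 3407) in migratory ones. Premigratory replicates 2 and 4 lay inside the migratory range and replicates 1 and 3 near zero. The call ended when any 1 of premigratory replicates 1 and 3 and migratory replicates 2, 3, 6, 7 and 8 was left out (adjusted p up to 0.117). The better seen identifier of DYNLT1, ENSDARG00000045909, overlapped between groups (0, 647, 0 and 109 against 0 to 1276).

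The heavy chain DYNC1H1, which carries the motor domain itself, was listed at 0 to 4.91 in premigratory libraries and at 0 to 9.61 in 7 of 8 migratory libraries, with 248 in migratory replicate 6. It lay under the filter and was not tested. Values of different genes are not compared here, since no transcript lengths were used.

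The dynein regulators were seldom detected before migration. Of the 8 identifiers 0 or 1 reached 10 in each premigratory library and 2 to 5 in each migratory one. PAFAH1B1 (LIS1), which holds dynein in an active state, was at 2.62, 0.917, 3298 and 0.936 before and at 706 to 4699 (median 1821) after migration, a log2 difference of 6.95 (SE 1.80, limma adjusted p = 0.0211). Its copy pafah1b1b was at 1.91, 8152, 3.76 and 2.78 before and at 788 to 4443 (median 1641) after, a difference of 6.19 (SE 1.83, limma adjusted p = 0.0375). In premigratory libraries each copy was high in 1 library, replicate 3 for PAFAH1B1 and replicate 2 for pafah1b1b, whereas both were at 706 or more in all 8 migratory libraries.

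The summed values of the 2 LIS1 copies were 4.53, 8153, 3302 and 3.71 in premigratory libraries and 2142 to 9142 in migratory ones. LIS1 transcripts were therefore at the migratory level in premigratory replicates 2 and 3 and near zero in replicates 1 and 4. The call of pafah1b1b was lost without any of 9 single libraries (adjusted p up to 0.105), and without premigratory replicate 2 the difference was 8.97 (adjusted p = 0.000378). That of PAFAH1B1 was lost without premigratory replicate 4 (adjusted p = 0.0509). Related identifiers were added together after the values were seen.

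NDE1, which tethers LIS1 to dynein, rose by 7.76 (SE 1.92, limma adjusted p = 0.0176). It was at 0, 0.963, 3.96 and 3.12 in premigratory libraries and at 2.89 to 4031 (median 1624) in migratory ones. Migratory replicates 4 and 1, at 2.89 and 48.5, were its lowest and the other 6 lay between 702 and 4031. The call held without any single library. Its paralog NDEL1 was under the filter in both identifiers. One of them was high in migratory replicates 2, 7 and 8 (628, 586 and 321) and the other in replicates 1 and 6 (2626 and 31.9). The adaptors BICD1 and BICD2, in 3 identifiers, did not exceed 20.8 in any library.

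The ciliary dynein 2 genes showed no difference that passed, with 0 of 4 tested genes called. DYNC2LI1, a light intermediate chain, was listed at 0 in every premigratory library and reached 233 to 679 in migratory replicates 2, 3, 6 and 8, with values under 1 in the other 4 (difference 4.51, SE 2.09, limma adjusted p = 0.147). The light chain DYNLT2B was at 0.789, 2182, 0 and 0 before and 0 to 1159 (median 279) after migration. Of the other genes of cilium trains, on a list of intraflagellar transport proteins, 1 of 15 tested rose, namely IFT20. Of 5 tested axonemal dynein genes 0 passed (2 with an unadjusted limma p under 0.05). Of all tested genes 12.4% rose, and 3850 of 12122 were higher at an unadjusted p under 0.05.

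Transport kinesins were detected about as often as the genes of the table. Of the 27 identifiers 3 to 7 reached 10 in each premigratory library (11.1% to 25.9%, beside 14.1% to 26.6% of all genes) and 8 to 15 in each migratory library (29.6% to 55.6%, beside 34.8% to 46.0%). In all 12 libraries 6 stayed under 10. KIF3A, a motor subunit of kinesin-2, was listed at 0 in premigratory replicates 1 to 3, at 2.78 in replicate 4 and at 0 to 2309.7 (median 1079.5) in migratory libraries. Its migratory 0 was in replicate 5 and the other 7 lay between 172 and 2309.7. The log2 difference was 7.97 (SE 1.94, limma adjusted p = 0.0163) and was called without any single library. KIF3B, its partner in the motor, was at 2.59, 0, 0 and 6.43 before and 0 to 522 (median 51.6) after migration (difference 3.74, SE 1.77, limma adjusted p = 0.154).

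Conventional kinesin, the main plus-end carrier of many cells, did not pass. KIF5B ENSDARG00000074131 was at 1631, 675, 21.2 and 3.80 in premigratory and 11 to 3097 (median 1264) in migratory libraries. The other identifier, ENSDARG00000103394, was at 0, 2.89, 4363 and 2.97 against 37.2 to 518 (median 237). Added together they were at 1631, 678, 4384 and 6.77 before and 110.2 to 3615 (median 1459) after migration. Premigratory replicate 3 thus held the highest KIF5B of all libraries and replicate 4 the lowest. The light chains KLC1 (difference 4.46, SE 1.60, limma adjusted p = 0.0738) and klc4 (4.41, SE 1.90, limma adjusted p = 0.122) did not pass, and KIF5A and kif5c stayed at 18.8 or less.

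The libraries with high values differed among the other transport kinesins. KIF1C was at 907 in premigratory replicate 1, the library rich in epidermal markers, and at 4.99 or less elsewhere. KIF21A was at 4972 in premigratory replicate 3 and 0 to 645 in migratory libraries. KIF1B, a carrier of mitochondria and synaptic vesicle precursors in mouse, was at 5.77 or less in premigratory libraries and reached 127 to 276 in migratory replicates 3, 5 and 6 (difference 3.12, SE 1.66, limma adjusted p = 0.197). KIF16B, a carrier of early endosomes, was higher in its identifier ENSDARG00000100225 by 4.24, which did not pass (SE 1.62, limma adjusted p = 0.0894).

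Of the kinesins outside these classes, KIF2A, which shortens microtubules, came close to the threshold. It was at 0, 557, 1.00 and 2.92 before and at 11.8 to 1559.7 (median 759.8) after migration, a difference of 5.85 (SE 1.89, limma adjusted p = 0.0516). Migratory replicate 4 held the 11.8 and the other 7 lay at 443 or above. KIF7, a regulator of Hedgehog signalling at the cilium, was at 4.45, 1859, 1.02 and 680.4 before and at 15.4 to 868 (median 54.9) after, with overlapping groups. KIF26A ENSDARG00000015016 had its highest value, 8692, in premigratory replicate 1, and 0 to 34.3 in the other premigratory libraries.

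Mitotic kinesins varied widely in detection before migration. Of the 12 genes 2, 9, 4 and 8 reached 10 in premigratory replicates 1 to 4, and 7 to 12 in migratory libraries. All genes of the table were likewise detected less in premigratory replicates 1 and 3. Their shares were 18.4%, 26.6%, 14.1% and 25.7% in replicates 1 to 4, and 34.8% to 46.0% in migratory libraries. All 12 were tested and 1 rose (8.33%, beside 12.4% of all tested genes). The median difference was 2.66 beside 2.67 over all tested genes. The minus-end motor kifc1, which bundles spindle microtubules, was at 3075, 3654, 5042 and 1092 in premigratory and 251 to 7412 (median 2155) in migratory libraries. The groups overlapped throughout and the difference was -0.50 (SE 0.98, limma adjusted p = 0.748). The microtubule depolymeriser kif2c was at 4498, 3336, 6016 and 65.1 before and 0 to 3329 (median 1459.9) after, a difference of -1.55 (SE 1.98, limma adjusted p = 0.613). Premigratory replicates 1 to 3 all lay above every migratory library, replicate 4 did not.

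**Figure D4:**
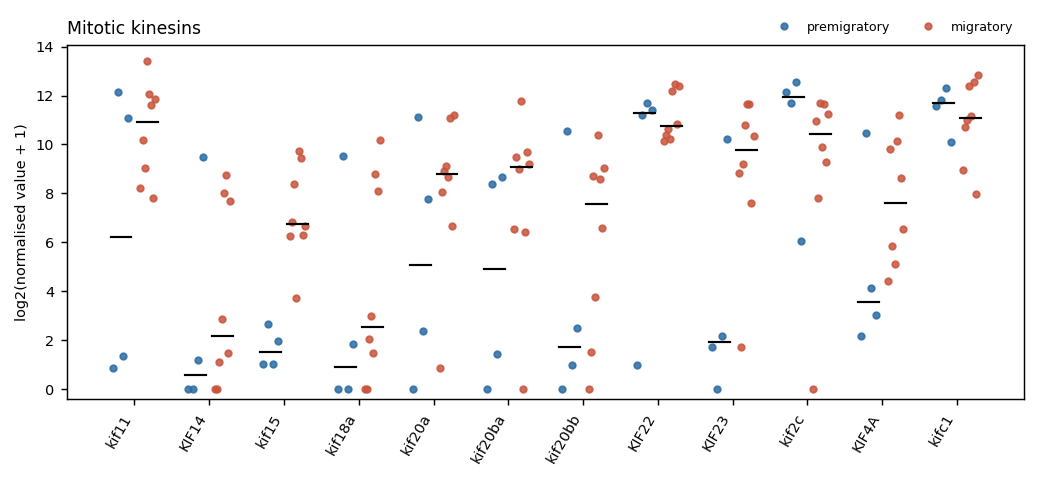
Points give log2(normalised value + 1) of the 12 mitotic kinesins, blue for the 4 premigratory and red for the 8 migratory libraries, with black bars at group medians taken on that scale. Values of kifc1 overlap between the groups, kif15 is separated by its low premigratory values, and most other genes have premigratory libraries both near zero and at the migratory level.

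Kif15, which can help kif11 keep spindle poles apart, was the mitotic kinesin that rose. Its premigratory values were 1.07, 5.34, 1.07 and 2.94 and its migratory values 12.3 to 848 (median 106), a log2 difference of 5.48 (SE 1.49, limma adjusted p = 0.0265). The groups were separated, narrowly in migratory replicate 4 at 12.3, and the call ended without the first or the third premigratory library (adjusted p up to 0.0700). With quantile normalisation its difference was 0.17. Kif11, the motor that pushes spindle poles apart, was at 0.805, 4490.3, 1.60 and 2195 before and at 224 to 10757 (median 2139) after migration. Replicates 2 and 4 lay within the migratory range, and the difference of 4.15 did not pass (SE 2.04, limma adjusted p = 0.167).

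Which premigratory libraries were high differed among the kinesins of cell division. KIF23, a subunit of the midzone complex of dividing cells, was at 2.31, 0, 3.497 and 1180.2 before and at 2.34 to 3257 (median 942) after, and its difference of 5.46 did not pass (SE 2.16, limma adjusted p = 0.0996). Kif20a, another midzone motor, was at 0, 2223, 4.21 and 219 against 0.807 to 2370.3 (median 442). The chromosome arm motor KIF22 was near zero in premigratory replicate 1 alone, at 0.973, 2340.0, 3288 and 2729, and at 1115 to 5630.5 (median 1713) in migratory libraries (difference 2.34, SE 1.62, limma adjusted p = 0.323). Without that library the difference was -0.28.

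Migratory libraries also differed in mitotic kinesins. Migratory replicate 1, which had the highest muscle sum, was among the lowest 2 of the 8 for 10 of the 12 genes, with kif2c at 0, kif20a at 0.807 and 5 genes under 10. In migratory replicates 6 and 8 none of the 12 was under 10. Kif11 was highest in replicate 4 (10757), the library in which dync1i2a, DCTN4, DCTN5, ACTR10, NDE1 and PAFAH1B1 had their lowest migratory values. Other transport genes differed, since DCTN2 (7001) and dynll1 (35614) were also highest in replicate 4, and DCTN3 was lowest in replicate 1 (349). Over all genes, 20.4% reached 100 in replicate 4, against 29.1% to 37.7% in the other migratory libraries. The part of this low share or of the muscle markers in these values was not tested.

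Detection per library was counted for each class. Among dynactin identifiers 1, 4, 2 and 3 of 8 reached 10 in premigratory replicates 1 to 4 and 6 or 7 of 8 in migratory ones. For cytoplasmic dynein 1 the counts were 4, 7, 3 and 6 of 14 before and 6 to 10 after, so its ranges met. For transport kinesins and dynein regulators, as for dynactin, every migratory count lay above every premigratory one. Over all genes of the table the share was 14.1% to 26.6% before and 34.8% to 46.0% after migration, also without overlap. In total 14 to 28 of the 85 motor genes were detected in premigratory and 39 to 55 in migratory libraries. No test of 1 class against another was made.

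**Figure D5:**
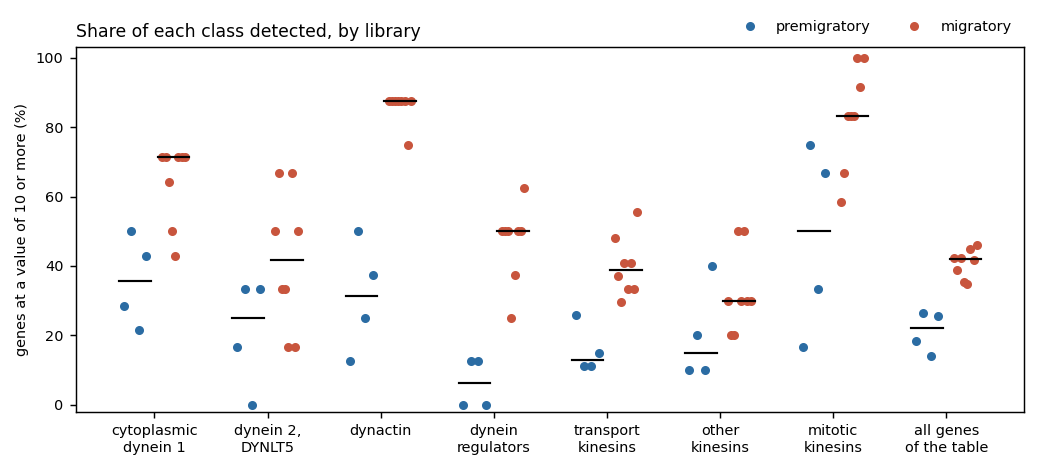
Points give the percentage of identifiers in each class with a normalised value of 10 or more, per library, in blue for the 4 premigratory and red for the 8 migratory libraries, with black bars at group medians; the last column holds all genes of the table. Dynactin, dynein regulators and transport kinesins have no overlap between groups, and neither do all genes of the table (14.1% to 26.6% against 34.8% to 46.0%), while mitotic kinesins reach 75% in premigratory replicate 2.

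Many motor genes were near zero in some libraries of a stage and high in others. Of the 52 tested, 19 were under 10 in 1 premigratory library and over 1000 in another, close to the share of all tested genes, 38.3%. Among migratory libraries 17 of the 85 were so, and the share of all genes was not counted there. Over all 12 libraries 55.5% of the motor values were under 10, 35.9% were 100 or more and 8.63% lay between. Of the 85 motor genes dynll1, DYNLRB1 and kifc1 were the 3 at 10 or more in every library, where 4.46% of the table were. Another 11 of the 85 never reached 10, where 27.5% of the table did not. All 4 premigratory libraries reached 10 for 6 motor genes, beside 5.38% of the table. Among the 44 that reached 10 before migration, premigratory replicate 2 held the highest premigratory value of 18, against 9, 7 and 10 in replicates 1, 3 and 4. Values of 1 or more were most frequent in batch 4. They were held by 70 motor genes in the premigratory and 75 in the migratory library, against 34 to 39 and 46 to 67 elsewhere. Over all genes of the table the shares were likewise 67.2% and 79.0%, against 25.6% to 43.3% and 47.6% to 67.2% elsewhere.

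Partners of the motors were read from lists of other genes. Of 27 tested dynein and dynactin cofactors 6 rose and 0 fell. RAB7A, the late endosome GTPase that recruits dynein through RILP, rose in both identifiers (differences 8.69, SE 1.52, and 6.38, SE 1.61), as did NUDCD3, RILPL2, MAPRE3 and ninl. Of 30 kinesin adaptors and cofactors 5 rose and 0 fell. Among them were borcs6, a subunit of a complex that positions lysosomes, and RAB27A, a GTPase found on melanosomes. MAP7D1, a microtubule protein that recruits kinesin in mammals, rose as well.

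The microtubule list had 7 of 31 tested genes up and 0 down, among them TUBA1A, tuba8l3 and TUBG1, tubulin genes, TBCA, a tubulin folding cofactor, SPAST, a severing enzyme, and TUBGCP2, a subunit of the nucleating complex. MAP1LC3B, which also rose, is known mainly for autophagy. Among spindle and mitosis partners 2 of 39 rose (bub1ba and ska1, both kinetochore or checkpoint genes) and 0 fell, with a median difference of 1.90. These shares, 22.2%, 16.7%, 22.6% and 5.13%, stand beside 12.4% of all tested genes, and the lists were not tested against each other. The lists were also chosen with earlier results of these data known.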

How the data were processed

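RNA of 12 libraries was amplified with SMART-Seq v4 chemistry and prepared with Nextera, per the labels' protocols. Per the submitters' processing notes, fastp 1.0, Salmon and the build GRCz11 were used; their order is not stated. The deposited values are a signal per gene, read counts normalised by the authors, as the file's name says; for the method, annotation and strand use, nothing is stated there. Low values are not whole multiples of 1 step, so no count model was run, and depth is known only from the sums. Symbols were matched for 23604 of 25878 identifiers, and 0 columns were left out. No 2 libraries were copies (highest correlation of log2(value + 1) 0.804).

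Libraries were compared in limma 3.58.1 (R 4.3.3), with log2(value + 1) as input and a trended empirical Bayes variance, over genes at 10 or more in at least 4 libraries. The scale understates the change of low genes. Benjamini-Hochberg adjustment ran over all tested genes, with calls under 0.05. Tables and figures were made in Python 3.11.15 (pandas 2.3.3, matplotlib 3.10.9). The test was also run on simulated data, in which the deviations of each gene were shuffled across libraries. That run did not cover shifts of whole libraries or unequal spread of the groups. Replicates are labelled biological, with no animal named, so p-values reflect only how these libraries vary.

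The labels call the library number a batch, so numbers 1 to 4 pair the groups, and batches 5 to 8 hold migratory libraries only. Deviations from group means correlated at 0.155, 0.0118, 0.0424 and 0.0342 in these pairs, against a mean of -0.0087 for different numbers. The pairing was left to an alternative.

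Members, classes and lists were chosen with earlier results of these data known. Named genes are all called members, the 3 uncalled with the smallest p and the 2 with the highest mean per class, and a fixed set of 32 symbols; other genes were named after their values were seen. Some genes of the kinesin adaptor list are not reported here by name.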

Additional observations from a re-analysis of the deposited data

Results flagged for a closer look

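Single libraries far from the others of their group were looked for on the log2(value + 1) scale for named motor genes, and in detected motor genes per library. In 84 such groups 20 were found. The rule gives about 1 in 20 by chance for normally spread values. Motor values were mostly either under 10 or high, so that rate need not hold here. Before migration, single high libraries were replicate 2 for dync1i2a (11285, the next highest 4.31), pafah1b1b (8152, next 3.76) and DYNLT2B (2182, next 0.789), replicate 3 for PAFAH1B1 (3298, next 2.62) and KIF5B ENSDARG00000103394 (4363, next 2.97), and replicate 4 for ACTR10 (1618, next 4.33). Single low premigratory libraries were replicate 4 for ACTR1A (3.88, next 1520.2) and kif2c (65.1, next 3336) and replicate 1 for KIF22 (0.973, next 2340.0).

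After migration, replicate 5, the library rich in blood markers, was low for DYNLL2 ENSDARG00000005172 (0, next 733) and KIF3A (0, next 172). In that library 34.8% of all genes reached 10, the lowest share among migratory libraries (up to 46.0%). The part of either trait in these low values was not tested. Replicate 4 was low for DYNLT2B (0, next 129), KIF2A (11.8, next 443) and KIF5B ENSDARG00000074131 (11, next 453). Replicate 1 was low for kif20a (0.807, next 101) and kif2c (0, next 221), and replicate 2 for KIF23 (2.34, next 196). High single libraries were replicate 6 for DYNC1H1 (248, next 9.61) and KIF26A ENSDARG00000015016 (1636, next 28.2) and replicate 1 for NDEL1 ENSDARG00000104225 (2626, next 31.9).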

How the results depend on the processing

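The 12 calls depended on scaling and libraries, and 0 motor genes were called lower under any alternative run. The number called higher was 2 with quantile normalisation (DCTN3 and DCTN5; 1.15% of all genes), 5 with median of ratios, 0 with the replicate block as a fixed term (3 residual degrees of freedom) and 0 with the exact rank-sum test, which called no gene of the table. It was 7 to 15 without single libraries, lowest without premigratory replicate 1 or 3 (7 each), and 6 without both premigratory replicate 1 and migratory replicate 5, chosen after seeing the data. The random replicate block, with a fitted correlation of 0.0175 and so close to no block, kept all 12. The share of all tested genes called higher, 12.4% in the main run, changed with the setting too. It was 6.31% with median of ratios, 8.75% with same total, 3.39% with no filter and 6.77% with a pseudocount of 10. Without single libraries that share was 6.4% to 16.4%, and without both libraries 10.8%. With the fixed replicate block it was 0. For dynactin (4) the counts were 2 with quantile normalisation, 2 with median of ratios, 0 and 0 with the fixed replicate block and rank-sum test, 2 to 5 without single libraries and 2 without both libraries. For the transport class (7 of 49: dynein 1, regulators and transport kinesins) they were 4 with no filter, 0, 3 and 4 with quantile, median of ratios and same-total scaling, 0 with the fixed replicate block, 0 with the rank-sum test, 4 to 8 without single libraries and 4 without both. For mitotic kinesins (1) they were 0 with a pseudocount of 10, no filter, quantile, median of ratios, the fixed replicate block, the rank-sum test or without both libraries, and 0 to 2 without single libraries. The difference in detected motor genes per library, 24.9 at a value of 10, was 15.1 at a value of 1. The median shift of all tested genes, 2.67, was 1.86, 2.35 and -0.00105 with median of ratios, same total and quantile scaling.

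The sign turned in uncalled genes only. With quantile normalisation it did so for DYNLL2 ENSDARG00000069790 (-1.41), DYNLT1 ENSDARG00000045909 (-0.42), DCTN1 ENSDARG00000056753 (-3.95), KIF4A (-1.28), kif20a (-0.56), KIF26A ENSDARG00000042368 (-3.57), KIF7 (-3.61) and KIF1B (-0.0517). Median of ratios turned DYNLRB1 (-0.0377), DCTN1 (-0.59), KIF26A ENSDARG00000042368 (-0.77) and KIF7 (-0.45), the fixed replicate block DYNLL2 ENSDARG00000005172 (0.22), dynll1 (0.19), DYNC2H1 (0.73) and KIF26A ENSDARG00000042368 (-0.62), and library weights DYNLL2 ENSDARG00000005172 (0.23), the same KIF26A (-0.40) and KIF7 (-0.93). KIF26A was at -0.19 with the same total and KIF7 at -0.19 with a pseudocount of 10. Without both libraries DYNLL2 ENSDARG00000005172 was at 0.39, dynll1 at 0.33, KIF22 at -0.42, KIF26A at 1.80 (ENSDARG00000015016) and -1.01, and KIF7 at -0.80. Without single libraries the ranges were -1.49 to 0.40 and -0.72 to 2.42 for DYNLL2, -0.44 to 0.23 for dynll1, -0.26 to 1.31 for DCTN1, -0.28 to 3.29 for KIF22, -3.02 to 1.34 and -0.78 to 1.28 for KIF26A and -1.10 to 2.18 for KIF7. The cause was not tested. Values under 10 in a library of 20 cells do not show that a transcript was absent.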
